A study of Mus musculus with 231 samples.

Results

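The control (Ctrl) arm of this mouse leukemia study pooled littermates of 3 genotype codes, CW, HW and WT, and the comparison described here asked whether the microRNAs (miRNAs) of the blood differed between the Ctrl mice coded CW and those coded HW or WT. The members were 69 of the 231 libraries of the series. They came from peripheral blood mononuclear cells (PBMC) of 7 training Ctrl mice, taken each month from month 1 to month 10. The CW group held 4 mice and 40 libraries, from males 3339, 3342 and 3346 and female 3349. The HW or WT group held 3 mice and 29 libraries, from HW males 3335 and 3340 and WT female 3350, which had no library of month 10. Members were chosen by these codes in the labels and by no measured value, and the counts of a mouse were summed over its months, so that each mouse gave 1 value.

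All mice were C57BL/6. The leukemia model, called CM, carries Cbfb56M/+ and Mx1-Cre, so that poly(I:C), a synthetic double-stranded RNA that sets off an interferon response, switches on the fusion gene Cbfb-MYH11 wherever the interferon-driven Mx1 promoter is active. CM mice aged 6 to 8 weeks received 7 doses of 14 mg/kg on alternate days. The Ctrl littermates were of the same age, lacked the transgene per the labels and were treated likewise, so poly(I:C) was shared by every group. The study's methods instead list Cbfb56M/+, miR126flox/flox or doubly altered littermates as controls. CM mice all had the code CHW, and what the letters stand for was not given in the sources used here. The 2 sexes were in both genotype groups.

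MiRNAs are short RNAs that guide a silencing complex to messenger RNAs, mainly by pairing through the seed, bases 2 to 8 from the 5′ end. Both strands of a precursor hairpin can yield a mature miRNA, the 5p and the 3p arm. Blood miRNAs follow the cells they come from, with miR-150 high in mature lymphocytes, miR-223 in myeloid cells and miR-451a in red cells. MiR-126, the miRNA the study is about, is known from endothelial cells, platelets and hematopoietic stem cells, where it restrains the cell cycle, and it lies inside the gene Egfl7. In bulk samples such as these, fewer cells of a type and less RNA per cell cannot be told apart.

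The mature sequences below are those of miR-126a-3p, of the miRNAs with the smallest p in each direction, of close relatives that short reads could confuse with them, and of miR-196a-5p and miR-615-3p, which were high in some libraries of HW or WT mice. Capitals mark the seed.
miR-126a-3p: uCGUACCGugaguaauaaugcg
miR-135a-5p: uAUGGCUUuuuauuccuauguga
miR-574-5p: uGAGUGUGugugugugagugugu
miR-103-3p: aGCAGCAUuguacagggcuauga
miR-107-3p: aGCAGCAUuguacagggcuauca
miR-20b-5p: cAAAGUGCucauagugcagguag
miR-106a-5p: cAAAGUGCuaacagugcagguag
miR-17-5p: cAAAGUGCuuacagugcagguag
miR-3068-5p: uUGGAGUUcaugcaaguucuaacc
miR-3068-3p: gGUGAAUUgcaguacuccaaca
miR-203-3p: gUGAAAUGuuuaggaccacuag
miR-32-5p: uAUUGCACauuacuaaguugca
miR-196a-5p: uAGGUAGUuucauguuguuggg
miR-196b-5p: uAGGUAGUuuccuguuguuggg
miR-615-3p: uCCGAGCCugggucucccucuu

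The sequences and positions are from RefSeq on GRCm38.p6, whose table held 727 of the 883 miRNAs tested and 8 of the 10 with the smallest p. MiR-467a-5p, miR-466b-3p and miR-126a-5p are named only. MiR-126a-3p is encoded at chr2:26591402-26591423 on the plus strand, within Egfl7. MiR-103-3p comes from 2 loci, chr2:131288103-131288125 within Pank2 and chr11:35782447-35782469 within Pank3, both on the plus strand, and its sequence differs from miR-107-3p at 1 base. MiR-135a-5p also comes from 2 loci, chr9:106154140-106154162 on the plus strand and chr10:92072141-92072163 on the minus strand. MiR-20b-5p, at chrX:52742159-52742181 on the minus strand, has the seed AAAGUGC and differs from miR-17-5p and from miR-106a-5p at 2 bases each. MiR-196a-5p comes from chr11:96265187-96265208 and from chr15:102973365-102973386, and miR-196b-5p, which differs from it at 1 base, from chr6:52230129-52230150 on the minus strand. MiR-615-3p is encoded at chr15:103014969-103014990 on the plus strand, within Hoxc5.

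A training library held from 1792809 to 7151521 miRNA counts (median 4503030), and the sum per mouse was 40281614 to 47063975. The labels carry a G number from 1 to 7, and each of the 7 was in 5 to 7 CW libraries and in 3 to 5 HW or WT libraries. Summed profiles correlated between mice with r of 0.994 to 0.998 on log2 CPM (counts scaled to the depth of the library or mouse, the field's usual unit) over 21 pairs, which share assay and base composition; the median was 0.996 within a genotype group and 0.996 between the groups. The month 2 library of CW mouse 3349, which was also the shallowest, stood apart with r of 0.901 to the median of the other libraries, against at least 0.947 elsewhere. The labels of HW mouse 3335 were irregular: its serial numbers ran from 1 to 6 over months 0 to 5 and continued from month 6 in the run of numbers that CM mouse 3334 had up to month 5, while mouse 3334 went on with 7 and 8. The labels also carry a run number, and in the other training libraries each G number had its own range of run numbers. The month 6 library labeled mouse 3335 had G number 2 but a run number within the range of G number 5. The month 6 library labeled mouse 3334 had the reverse. Whether libraries of the 2 mice were exchanged was not tested, and values without mouse 3335 are given beside the results that they alter most. Values without its month 6 library are given for miR-126a-3p and miR-615-3p.

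Ctrl CW and Ctrl HW or WT mice had close miRNA profiles, and no miRNA passed the test between them. At months 1 to 10, 0 of 883 miRNAs (0%) were called by edgeR's quasi-likelihood test at a Benjamini-Hochberg adjusted p under 0.05. At an unadjusted p under 0.05 there were 65 (7.36%), of which 37 were higher and 28 lower in CW. All 4 CW mice lay above all 3 HW or WT mice for 33 miRNAs (3.74%) and below them for 42 (4.76%). DESeq2 on the same sums called 4 (0.453%), namely miR-467a-5p, miR-466b-3p, miR-149-3p and miR-135a-5p, all higher in CW. Without mouse 3335, edgeR called 0 of 922 miRNAs, with 46 at an unadjusted p under 0.05, and without the month 2 library of mouse 3349 it called 0 of 879, with 56. These p-values measure the spread between 7 mice.

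Fitted differences were small for most miRNAs. The median log2 difference over all 883 was -0.01. The 95% interval of a difference, not adjusted for the number of miRNAs, had a median half-width of 0.42 on the log2 scale, and 0.29 among the 331 miRNAs with a mean of at least 10 CPM. For 736 miRNAs (83.4%) the whole interval lay within 1 log2 unit of 0, and among the more abundant ones for 319 of 331 (96.4%). Only 3 of the 331 had a fitted difference over 1 log2 unit, of which 2 were miR-466b-3p and miR-135a-5p and the other was miR-124-3p, high in a single library. The plot of differences by level shows how the spread of fitted differences narrowed with abundance.

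**Figure D1:**
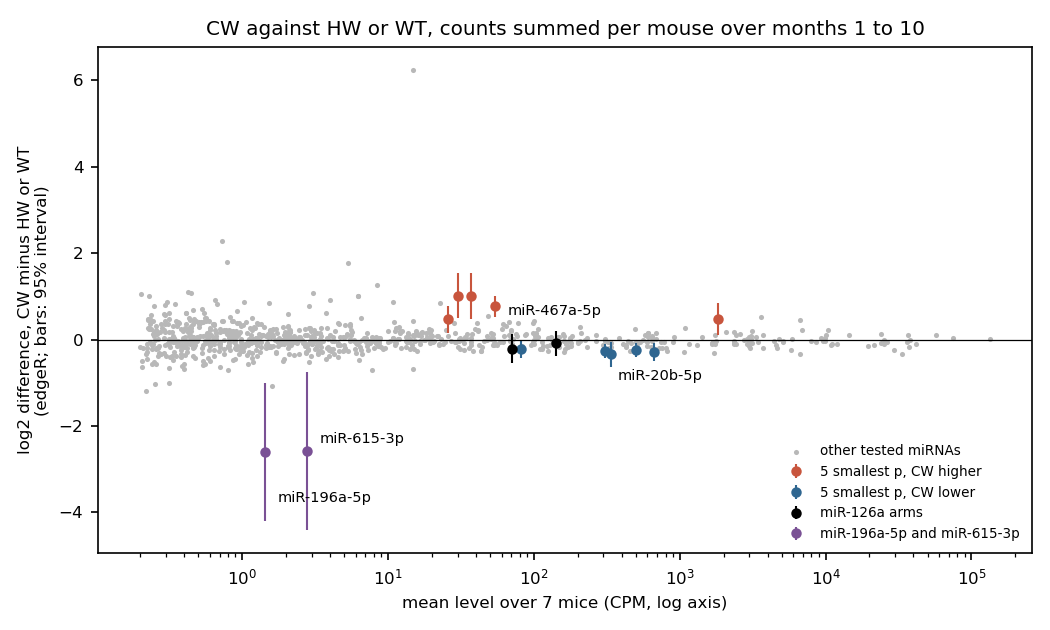
Fitted log2 difference, CW minus HW or WT (y axis), against the mean level over 7 mice in CPM on a log axis (x axis), for 883 miRNAs. Colored points are the 10 miRNAs with the smallest p at 10 CPM or more, both arms of miR-126a, and miR-196a-5p and miR-615-3p, with 95% intervals. Most points at 10 CPM or more lie near 0, with 319 of 331 intervals inside 1 log2 unit.

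Of the 5 miRNAs with the smallest p and a higher level in CW, miR-467a-5p had the lowest p and was called by DESeq2 but not by edgeR. Its summed level was 61.6, 62.4, 74.1 and 66.4 CPM in CW mice 3339, 3342, 3346 and 3349, against 37.6, 37.2 and 41.3 CPM in mice 3335, 3340 and 3350. The groups did not overlap, and the log2 difference was 0.77 ± 0.11 (SE; edgeR adjusted p = 0.0533, DESeq2 adjusted p = 5.06e-09). MiR-467a belongs to a large miRNA cluster in an intron of Sfmbt2 whose members are near-identical copies. Another member, miR-466b-3p, was at 35.8, 44.7, 45.9 and 27.5 CPM in the CW mice and at 14.4, 18.5 and 24.3 CPM in the others, a log2 difference of 1.01 ± 0.23 (edgeR adjusted p = 0.404, DESeq2 adjusted p = 0.00787).

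MiR-135a-5p, known to target the Wnt pathway inhibitor Apc, was at 43.4, 53.02, 58.7 and 32.6 CPM in the CW mice against 17.6, 23.9 and 28.4 CPM, a difference of 1.01 ± 0.23 (edgeR adjusted p = 0.404, DESeq2 adjusted p = 0.00787). MiR-574-5p, whose sequence is largely alternating g and u, was at 24.998, 34.1, 28.1 and 30.1 CPM against 22.9, 19.7 and 21.1 CPM, a difference of 0.47 ± 0.13 (edgeR adjusted p = 0.508). MiR-103-3p, encoded in introns of pantothenate kinase genes and known for its effect on insulin sensitivity, was at 1879, 1864, 1894 and 2699 CPM against 1553, 1697 and 1231 CPM, a difference of 0.48 ± 0.16 (edgeR adjusted p = 0.653). In the sums of all 5 every CW mouse was above every HW or WT mouse, and none passed edgeR's threshold. Choosing by small p favors such separation, which 33 of all 883 tested miRNAs (3.74%) had in this direction. Without mouse 3335 the 5 log2 differences were 0.75, 0.84, 0.84, 0.52 and 0.51 in the same order. Medians over the libraries of a mouse stayed apart for miR-467a-5p and miR-103-3p but overlapped for miR-466b-3p, miR-135a-5p and miR-574-5p. For miR-135a-5p they were 38.8, 8.61, 21.6 and 31.4 CPM in the CW mice against 11.25, 27.9 and 17.7 CPM. Its month 4 library of CW mouse 3342 held 229.2 CPM, and its month 1 library of CW mouse 3346 held 164.5 CPM.

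The 5 miRNAs lower in CW differed less in size and more evenly. MiR-20b-5p, a member of the miR-17 seed family that is known to hold back cell cycle inhibitors, was at 290.2, 269.5, 283.7 and 291.6 CPM in the CW mice and at 338.8, 342.4 and 336.2 CPM in the HW or WT mice. The groups were well apart for a log2 difference of only -0.26 ± 0.07 (edgeR adjusted p = 0.508). MiR-3068-5p was at 478.1, 437.4, 476.8 and 476.6 CPM against 530.3, 557 and 563.5 CPM, a difference of -0.24 ± 0.07, and the other arm of its hairpin, miR-3068-3p, at 76.4, 73.1, 81.8 and 73.3 CPM against 87.9, 91.9 and 87.9 CPM, a difference of -0.23 ± 0.09 (edgeR adjusted p = 0.653 for both). Both arms of miR-3068, in the gene Alkbh1, thus lay lower in each CW mouse than in each HW or WT mouse. They were among the 42 of 883 tested miRNAs (4.76%) that did so.

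MiR-203-3p, an epithelial miRNA known for keratinocyte differentiation, was at 660.2, 604.5, 622 and 539.1 CPM in CW against 756.6, 761.6 and 694.1 CPM, a difference of -0.28 ± 0.09 (edgeR adjusted p = 0.653). MiR-32-5p, which shares its seed with miR-25 and miR-92a and is known to target the pro-apoptotic gene Bim, was at 363.7, 263, 309.5 and 270.9 CPM against 420.4, 350.9 and 376.7 CPM, a difference of -0.34 ± 0.13 (edgeR adjusted p = 0.653), and here CW mouse 3339 overlapped the HW or WT mice. Without mouse 3335 the differences of miR-20b-5p, miR-3068-5p, miR-203-3p, miR-32-5p and miR-3068-3p were -0.26, -0.26, -0.26, -0.27 and -0.24.

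**Figure D2:**
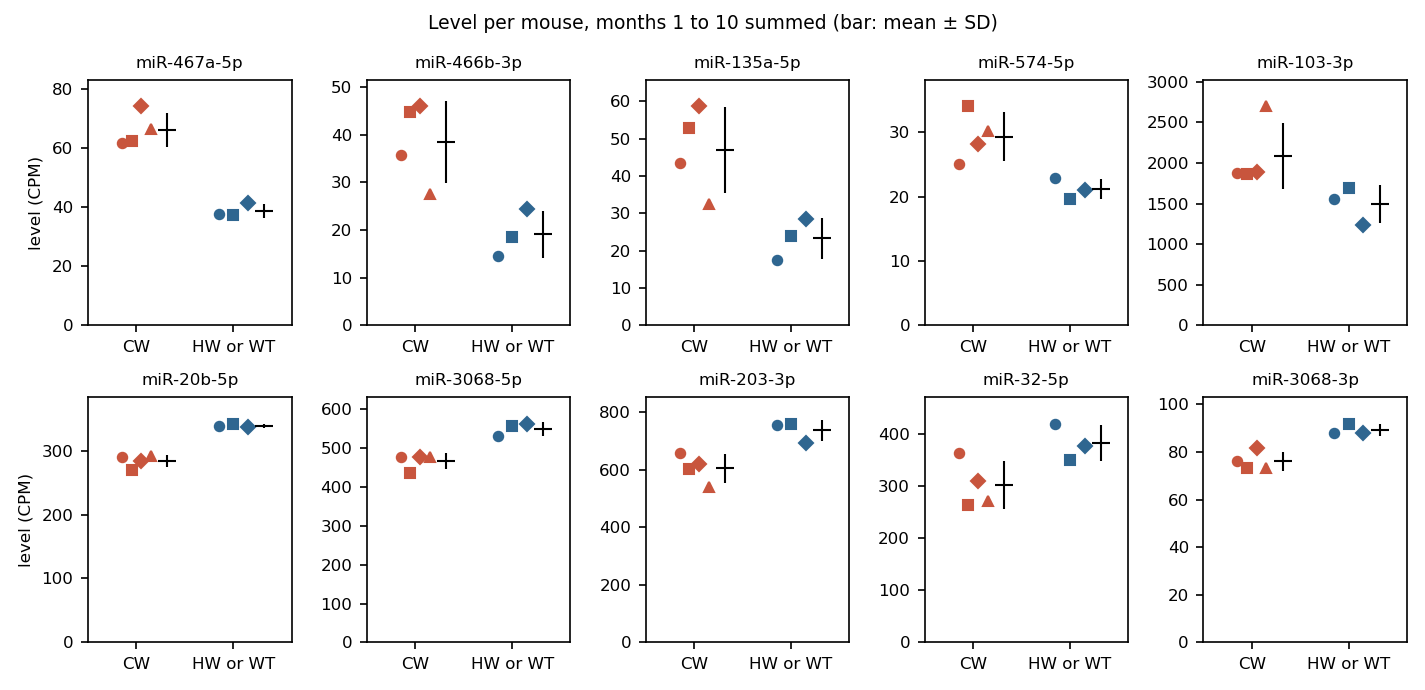
Level in CPM (y axis, from 0) of the 10 miRNAs with the smallest p at 10 CPM or more, 1 point per mouse with months 1 to 10 summed, CW in red and HW or WT in blue; bars are mean ± SD and a symbol is the same mouse in every panel. In 9 of the 10 panels the groups do not overlap, miR-32-5p being the exception, and none of the 10 was called by edgeR. Choosing by small p in this comparison favors such separation. Of all 883 tested miRNAs, CW lay wholly above for 33 (3.74%) and wholly below for 42 (4.76%).

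MiRNAs encoded beside these gave differences of varied size. Within the X chromosome cluster of miR-20b-5p, 10 other mature miRNAs were tested, of which 8 were lower and 2 higher in CW. The largest difference of a neighbor was that of miR-106a-3p, -0.56 ± 0.15 (unadjusted p = 0.00423, edgeR) at a mean of 1.09 CPM. MiR-106a-5p differed by -0.21 ± 0.09 and miR-363-3p by -0.15 ± 0.08. MiR-92a-3p, also made by a related cluster on another chromosome, was 0.22 ± 0.10 higher. Of the 6 tested miRNAs with the seed AAAGUGC, 5 were lower and 1 higher, miR-17-5p at -0.10 ± 0.07 and miR-20a-5p at -0.04 ± 0.07. MiR-203-5p, from the hairpin of miR-203-3p, differed by -0.53 ± 0.19 at 1.18 CPM. MiR-107-3p, a single base away from miR-103-3p, was lower in CW by -0.26 ± 0.14 while miR-103-3p was higher.

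The study deposited a separate table of scaled CPM for the same libraries, from which whole reads were recovered, and 3 of the 5 miRNAs higher in CW depended on which table was used. On the recovered reads the log2 difference of miR-467a-5p was 0.03, that of miR-466b-3p 0.05 and that of miR-103-3p 0.03. The differences of miR-135a-5p (0.83) and miR-574-5p (0.44) and of all 5 lower miRNAs (-0.20 to -0.32) were close to those from the counts. In this table edgeR again called 0, of 875 miRNAs, with 60 at an unadjusted p under 0.05.

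The libraries of a mouse show where the tables parted. In the counts, miR-467a-5p ranged over the 69 libraries from 1.01 to 213 CPM (median 26.9), and in the deposited CPM from 28.6 to 400.4 (median 272.2). The SD of its log2 level between libraries of the same mouse was 1.92 in the counts and 0.51 in the deposited CPM. MiR-103-3p gave 1.47 and 0.42, miR-466b-3p 1.67 and 0.43, and miR-135a-5p 2.03 and 0.89. For miR-20b-5p, from a single locus, the SDs were 0.56 and 0.57. Levels of the first 4 thus swung more from month to month within a mouse in the counts than in the deposited CPM, which miR-20b-5p and miR-574-5p (0.78 and 0.77) did not.

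The spread was then set beside the number of loci of each name, which is not known here for miR-467a-5p and miR-466b-3p. Among miRNAs with at least 10 CPM, the 20 names that RefSeq places at 2 or more loci had a median within-mouse SD of 1.48 log2 units in the counts and 0.49 in the deposited CPM, and 16 of 20 exceeded 1 in the counts against 0 in the deposited CPM. The 252 names matched to 1 locus had medians of 0.51 and 0.52, and 21 and 20 of them exceeded 1. Among these, let-7a-5p had SDs of 1.44 and 0.37. Whether the match held every locus of a name was not checked, for let-7a-5p as for the others. When the counts of names that share a number and an arm were added up, the summed miR-467-5p (5 names) differed by 0.05 ± 0.10, with 559.5, 690.8, 590.2 and 556.3 CPM in the CW mice and 570.1, 617, 543.4 CPM in the others, and the summed miR-466-3p (13 names) by 0.11 ± 0.12. The summed miR-135-5p stayed 0.87 ± 0.22 higher in CW (unadjusted p = 0.00352, edgeR adjusted p = 0.506). In that form 0 of 720 were called, with 49 at an unadjusted p under 0.05. How reads were divided among near-identical names in the counts was not given in the sources used here.

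**Figure D3:**
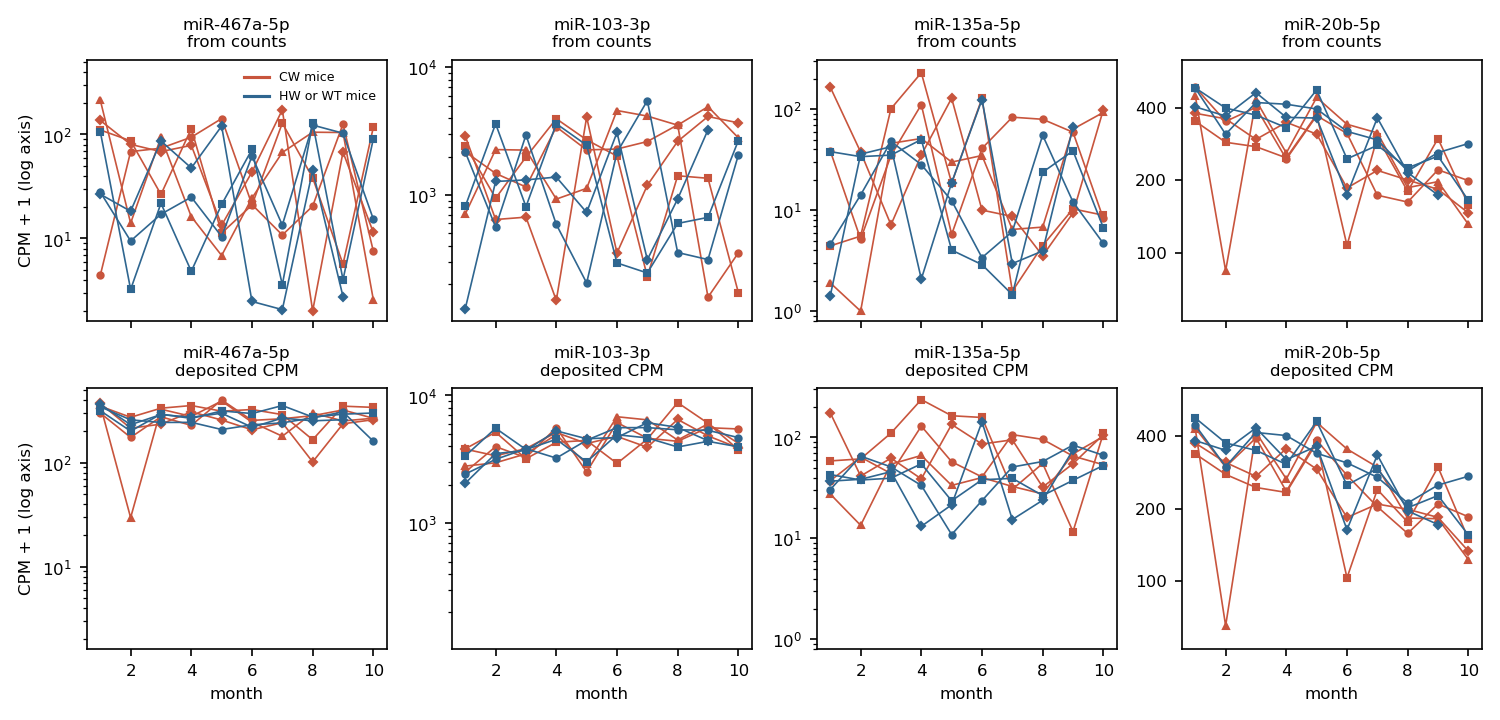
Level by month (x axis, months 1 to 10) in CPM + 1 on a log axis (y axis) of 4 miRNAs, from the counts (upper row) and from the deposited CPM (lower row), a line per mouse, CW in red and HW or WT in blue. MiR-467a-5p and miR-103-3p swing over more than a decade in the counts and over far less in the deposited CPM, whereas miR-20b-5p looks alike in both and has its lowest point at month 2 of CW mouse 3349 (83.3 CPM in the counts).

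MiR-126 did not differ detectably between the control genotypes. MiR-126a-3p was at 141, 120.8, 132.96 and 155.3 CPM in CW mice 3339, 3342, 3346 and 3349 (137.5 ± 14.5, SD, n = 4) and at 167.8, 124.7 and 145.4 CPM in mice 3335, 3340 and 3350 (146 ± 21.6, n = 3). The ranges overlapped, and the highest mouse was 3335. The difference in mean log2(CPM + 1) was -0.08, with a two-sided exact permutation p of 0.571 over 35 splits (adjusted over 8 tests, 0.653), where the smallest possible p was 0.057. The edgeR difference was -0.09 with a 95% interval from -0.37 to 0.20. MiR-126a-5p was at 69.2, 53.9, 65.2 and 75.6 CPM against 90.4, 65.1 and 73.2 CPM, a difference of -0.20 (exact permutation p = 0.4). Without mouse 3335 the difference of miR-126a-3p became 0.02 and that of miR-126a-5p -0.08.

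Over the months, no month separated the genotypes for either arm. The CW mean of log2 miR-126a-3p was the higher at 6 of 11 months including month 0, and that of miR-126a-5p at 4 of 11, and at 0 months did all mice of a group lie above those of the other. At months 1 to 10 the libraries of CW mice ranged from 34.9 to 262 CPM and those of HW or WT mice from 87.5 to 564.8 CPM of miR-126a-3p. The low value was the month 2 library of mouse 3349. The high value was the month 6 library labeled mouse 3335, where the next month by level, month 5 of that mouse, held 281.2 CPM, and the median of the other 68 libraries was 125.8 CPM. At month 6 the HW or WT mean was therefore 274.9 ± 253.1 CPM (n = 3) against 185.6 ± 70.8 CPM (n = 4) in CW. Without that library the difference over months 1 to 10 was 0.03 (exact permutation p = 0.857).

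**Figure D4:**
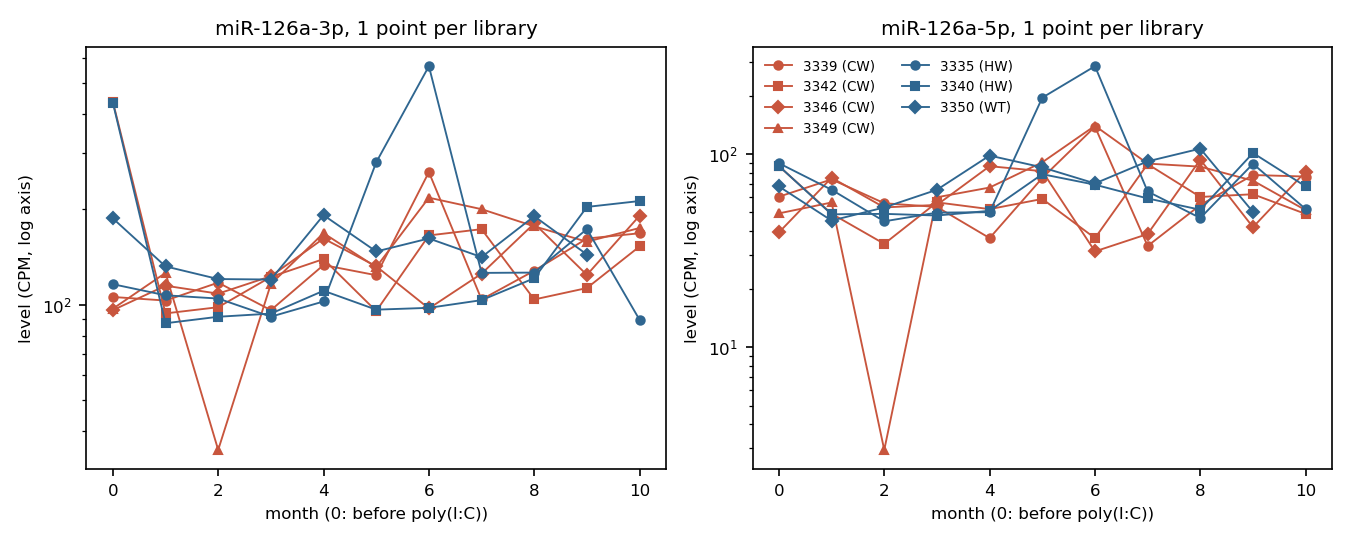
Level of miR-126a-3p (left) and miR-126a-5p (right) in CPM on a log axis (y axis) in each library from month 0 to month 10 (x axis), a line per mouse, CW in red and HW or WT in blue. The groups overlap at every month; the peak is the month 6 library of mouse 3335 (564.8 CPM of miR-126a-3p) and the low point the month 2 library of mouse 3349 (34.9 CPM).

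The 6 miRNAs most abundant in the counts were nearly level between the genotypes. In the deposited CPM the order was another, with let-7f-5p at a mean of 77775 against 36696 CPM in the counts. MiR-142a-5p had 14706 there against 41711 CPM in the counts. MiR-21a-5p, induced in activated and inflamed cells, had a mean of 133580 ± 12447 CPM in CW and 132440 ± 7979 CPM in HW or WT, a log2 difference of 0.01 ± 0.11. Let-7i-5p, of the let-7 family that is high in differentiated cells, had 75147 ± 1947 and 73020 ± 4718 CPM (0.04 ± 0.09). MiR-451a of red cells had 58507 ± 14264 and 54649 ± 5271 CPM (0.10 ± 0.18), with 79187 CPM in CW mouse 3349 and 47607 to 59352 CPM in the other 6 mice. MiR-142a-5p, found in all blood cells, differed by -0.11 ± 0.09, let-7g-5p by -0.01 ± 0.09 and miR-150-5p of mature lymphocytes by -0.17 ± 0.15. Each of these 6 overlapped between groups, with edgeR adjusted p from 0.83 to 0.983. MiR-22-3p, with a mean of 6870 CPM and known to target the demethylase gene Tet2, was at 7081, 7884, 6879 and 7341 CPM in the CW mice and at 5900, 6731 and 6272 CPM in the others, without overlap. Its difference was 0.21 ± 0.09 (edgeR adjusted p = 0.664), and when each of the 69 libraries entered the fit with its mouse as a random effect it was the 1 miRNA called (0.25, limma adjusted p = 0.0204). That fit estimated a correlation of 0.0149 between libraries of a mouse, so it treated the libraries of 7 mice as nearly independent.

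Groups of miRNAs that mark cell types were read by the count and median of their members, beside all tested miRNAs, of which 427 were higher and 456 lower in CW with a median of -0.01. In the PBMC the summed levels of the lymphocyte list (39398 to 58038 CPM per mouse) and the myeloid list (31623 to 38866 CPM) were present in every mouse. The erythroid list was higher still, with 77834 to 132890 CPM in CW and 79863 to 103170 CPM in HW or WT mice. Of its 7 members, 6 were higher and 1 lower in CW, with a median of 0.11. Summed levels of the muscle list were 87.6 to 175.2 CPM in CW and 65.7 to 146.9 CPM in HW or WT mice, and no list had a member at 0 in all mice. The part of red cell RNA in the differences above was not tested.

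Of the 6 miRNAs of the mature lymphocyte list, 5 were lower and 1 higher in CW, with a median of -0.18 (-0.06 without mouse 3335), and 0 were called. MiR-342-3p, transcribed within Evl and high in lymphocytes, was at 6678, 5115, 6455 and 5564 CPM in CW against 8134, 8413 and 6089 CPM, -0.34 ± 0.14 (edgeR unadjusted p = 0.0388, adjusted p = 0.664), and the groups overlapped. MiR-181a-5p, which tunes T cell receptor signaling, differed by -0.19 ± 0.30, and by 0.08 without mouse 3335. The 5 myeloid miRNAs had a median of -0.05, and miR-223-3p, the marker of granulocytes and monocytes, was at 4918, 10670, 10285 and 4434 CPM in CW against 5956, 5318 and 5193 CPM, a difference of 0.47 ± 0.31 (edgeR adjusted p = 0.768). In these sums CW mice 3342 and 3346 were thus high in miR-223-3p while CW mice 3339 and 3349 were below all others. The medians over libraries of mice 3342 and 3346 were 4744 and 5361 CPM, within the 4342 to 5702 CPM of the other mice. Their highest libraries, month 5 of mouse 3342 and month 1 of mouse 3346, held 26450 and 23620 CPM.

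The 5 tested of 6 platelet miRNAs had a median of -0.09, which includes both arms of miR-126a. MiR-221-3p, an abundant member of this list, was at 14092, 15218, 15166 and 15344 CPM in CW and at 9897, 12622 and 18914 CPM in HW or WT, so that the HW or WT mice lay on both sides of CW (0.11 ± 0.19, and -0.08 without mouse 3335). The inflammatory and interferon list had 9 members with 5 higher, 4 lower and a median of 0.01 (-0.03 without mouse 3335). MiR-155-5p was level (0.02 ± 0.11), as were miR-146a-5p (-0.05 ± 0.13) and miR-146b-5p (0.17 ± 0.22). MiR-147-3p, induced by Toll-like receptor signals, was at 17.4, 50.03, 26.2 and 18.7 CPM against 14.2, 18.1 and 14.4 CPM (unadjusted p = 0.041, edgeR adjusted p = 0.664), with mouse 3342 far above the rest and HW mouse 3340 within the CW range.

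The stem and progenitor list had 9 members, of which 6 were lower and 3 higher in CW, with a median of -0.06 (-0.13 without mouse 3335). MiR-99b-5p was at 930.7, 994.5, 962.5 and 1028 CPM in CW against 886.6 CPM in mouse 3335 and 1233 and 1445 CPM in mice 3340 and 3350. Its difference was -0.28 ± 0.15 with mouse 3335 and -0.46 without it (edgeR unadjusted p = 0.00207, adjusted p = 0.746). MiR-125a-5p, from the same cluster, went from -0.22 to -0.39 (unadjusted p = 0.00818, edgeR adjusted p = 0.751). Mouse 3335 was therefore the lowest of all 7 mice for both, and the other HW or WT mice the highest. The let-7 list had 7 of 9 members higher in CW and a median of 0.04, which was -0.01 without mouse 3335.

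Lists for tissues outside the blood gave small medians as well. They were -0.05 for liver (3 tested), -0.12 for vessel wall (4 tested, -0.21 without mouse 3335), -0.02 for epithelial miRNAs (7 tested, -0.17 without mouse 3335) and 0.24 for muscle (5 tested, 4 higher), the last becoming -0.07 without mouse 3335. Of the 32 listed miRNAs of the imprinted Dlk1-Dio3 cluster, 8 had enough counts to be tested, with a median of 0.25 (0.16 without mouse 3335), and miR-379-5p, miR-127-3p, miR-541-5p and miR-411-5p differed by -0.12, 0.05, 0.03 and -0.09. Of 76 names of the Sfmbt2 cluster, 59 were tested, of which 19 were higher and 40 lower in CW with a median of -0.04 (-0.09 without mouse 3335). Its most abundant members miR-467e-5p, miR-467c-5p, miR-466d-3p and miR-669c-5p differed by -0.06, 0.07, -0.01 and 0.19, in contrast with the 0.77 of miR-467a-5p and 1.01 of miR-466b-3p. No member of any list was called by edgeR.

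Before poly(I:C), at month 0, the same 7 mice gave 0 of 509 called miRNAs (0%) by edgeR, with 18 at an unadjusted p under 0.05. The 10 miRNAs with the smallest p at months 1 to 10 had the same sign at month 0 in 5 of 10. MiR-467a-5p was -0.92 ± 0.98, miR-466b-3p -1.42 ± 0.94 and miR-103-3p -1.02 ± 0.70 at month 0, opposite to later months, and miR-20b-5p was 0.11. These month 0 values rest on a single library per mouse in the counts. There the within-mouse SDs of miR-467a-5p, miR-466b-3p and miR-103-3p were 1.92, 1.67 and 1.47. MiR-135a-5p (0.08) and miR-574-5p (0.24) kept their sign. MiR-126a-3p at month 0 was at 102.9, 448.3, 92.5 and 96.3 CPM in the CW mice and at 114.4, 404.8 and 191.4 CPM in mice 3335, 3340 and 3350, a difference of -0.54 in mean log2(CPM + 1) (exact permutation p = 0.4). A mouse of each genotype group, 3342 and 3340, was far above the rest.

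Neither part of the months gave a call. At months 1 to 5 edgeR called 0 of 779 miRNAs (37 at an unadjusted p under 0.05), and at months 6 to 10 it called 0 of 717 (41). All 10 miRNAs with the smallest p had the same sign in both periods, which is no independent support since both periods were part of the sum. The difference of miR-467a-5p was 1.07 at months 1 to 5 and 0.46 at months 6 to 10, that of miR-135a-5p 1.14 and 0.64, and that of miR-20b-5p -0.24 and -0.26. Among the 61 named miRNAs with a value in both periods, 30 had opposite signs in them. MiR-223-3p of myeloid cells differed by 0.75 ± 0.40 at months 1 to 5 and by -0.25 ± 0.13 at months 6 to 10. The red cell miRNAs miR-451a (-0.37 ± 0.23 and 0.32 ± 0.19) and miR-144-3p (-0.49 ± 0.21 and 0.17 ± 0.24) and the muscle miRNA miR-1a-3p (-0.81 ± 0.60 and 0.97 ± 0.26) went from lower to higher values in CW. These had edgeR adjusted p from 0.744 to 0.923 over both periods, and the difference between the periods was not tested. Single high libraries were part of these sums. The highest miR-1a-3p library of each CW mouse, at months 6 to 10, held 355.9, 705.4, 1345 and 981.1 CPM, beside medians of 16.01 to 61.6 CPM. Those of the HW or WT mice held 179.4, 182 and 234.6 CPM, beside medians of 13.86 to 130.9 CPM. In month 8 of CW mouse 3346 miR-451a was at 285900 CPM, beside a median of 49340 CPM. The change from month 0 to months 1 to 10 was tested for a difference between the genotypes, with the mouse as a block, and 0 of 831 miRNAs were called (24 at an unadjusted p under 0.05). For miR-467a-5p this interaction term in the counts was 2.26 ± 1.11 on the log2 scale (edgeR unadjusted p = 0.0748). For miR-20b-5p it was -0.36 ± 0.20 (edgeR unadjusted p = 0.106).

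Some miRNAs were high in a single mouse or library, chosen here after their values were seen. MiR-196a-5p, made from the Hoxb and Hoxc gene clusters, was at 0.29, 0.56, 0.44 and 0.49 CPM in the CW mice, at 0.39 CPM in HW mouse 3340, and at 2.36 and 5.46 CPM in HW mouse 3335 and WT mouse 3350. In mouse 3350 it was at 0 counts at month 0, 0.20 CPM at month 2, and from 3.26 to 12.35 CPM in all 7 libraries of months 3 to 9, the last being the highest. The log2 difference was -2.61 ± 0.70 (edgeR adjusted p = 0.493). In 12 of 29 HW or WT libraries it exceeded 2 CPM, in 7 of mouse 3350 and 5 of mouse 3335, whereas in CW 0 of 40 libraries did and the highest held 1.54 CPM. MiR-196b-5p, 1 base away and far more abundant, was level between the genotypes (-0.02 ± 0.18). Summed counts of miR-196a-5p were 229 reads in mouse 3350, 99 in mouse 3335 and 13 to 24 in the other 5 mice.

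MiR-615-3p, from within Hoxc5, was at 140.9 CPM in the month 6 library labeled mouse 3335 and at most 5.16 CPM in the other 68 libraries. That library, which also held the highest miR-126a-3p, set the difference of -2.58 ± 0.81 (edgeR adjusted p = 0.653), and without it the difference was -0.87. In the deposited CPM the same library held 560.5 of miR-126a-3p, and its value of miR-615-3p was again the highest, so that both tables showed the peak. MiR-124-3p, a neuronal miRNA, was at 1150 CPM in the month 8 library of CW mouse 3339, 43.4 CPM in its month 9 library and at most 2.87 CPM elsewhere, with 41 of 69 libraries at 0. The same month 8 library held 1082 CPM of miR-96-5p and 139.7 CPM of miR-204-5p, both known from sensory organs, against medians of 38.3 and 1.496 CPM elsewhere. MiR-133a-3p of muscle reached 291.7 CPM in month 7 of CW mouse 3349, 87.7 CPM in month 8 of CW mouse 3346 and 71.2 CPM in month 10 of HW mouse 3340. MiR-149-3p, called by DESeq2, had 76.6 CPM in the month 2 library of mouse 3349, the library that stood apart, and at most 17.5 CPM elsewhere.

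**Figure D5:**
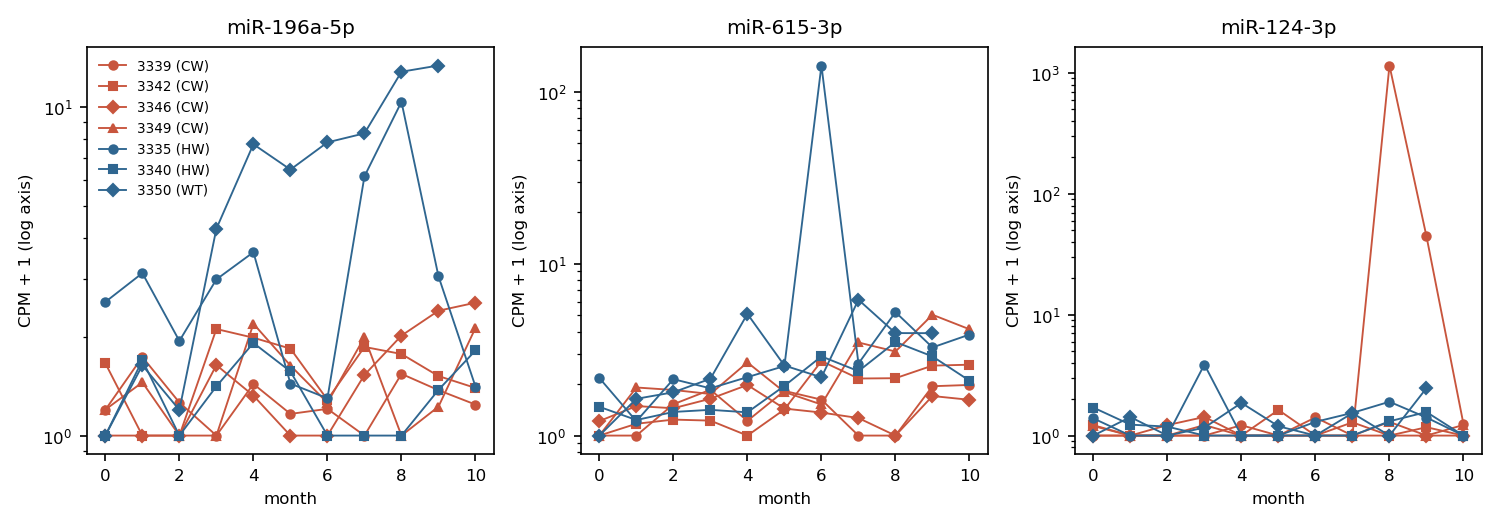
Level in CPM + 1 on a log axis (y axis) of miR-196a-5p, miR-615-3p and miR-124-3p in each library from month 0 to month 10 (x axis), a line per mouse, CW in red and HW or WT in blue. MiR-196a-5p was high in mouse 3350 from month 3 and in some months of mouse 3335, miR-615-3p in month 6 of mouse 3335 (140.9 CPM) and miR-124-3p in month 8 of mouse 3339 (1150 CPM).

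The choice of control genotype was then set beside the comparison with CM at months 1 to 3, for which 7 CM mice gave 20 libraries. The comparisons share the CM mice, so their values are given side by side only. Against CW, edgeR called 55 of 675 miRNAs higher (8.15%) and 72 lower (10.7%) in CM. Against HW or WT it called 57 of 701 higher (8.13%) and 43 lower (6.13%). Leaving out each of the 4 CW mice in turn left 81 to 97 calls, with 81 and 84 without mouse 3339 or 3349. Leaving out 3335, 3340 or 3350 left 21, 42 and 19 calls, where only 2 control mice remained.

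MiR-126a-3p at months 1 to 3 was at 201.7, 305.2, 697.2, 280.3, 671.5, 271.7 and 231.1 CPM in the CM mice, at 96.9, 96.6, 107.5 and 92.8 CPM in CW and at 95.01 and 88.8 CPM in HW mice 3335 and 3340, with a mean of 99.95 ± 14.2 CPM (SD, n = 3) once WT mouse 3350, the highest Ctrl mouse, is included. Every CM mouse lay above every Ctrl mouse of either genotype group. The log2 difference was 1.86 ± 0.37 against CW (edgeR adjusted p = 0.00687) and 1.91 ± 0.44 against HW or WT (adjusted p = 0.0146), and without each of the HW or WT mice in turn the adjusted p of the latter was 0.0598 to 0.0716 at differences of 1.84 to 2.04. MiR-126a-5p gave 2.11 ± 0.40 and 2.18 ± 0.46 (edgeR adjusted p = 0.00495 and 0.0128), and without mouse 3335 or 3350 the adjusted p against HW or WT was 0.0576 and 0.0595.

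Some of the other miRNAs named by the size of their change in CM had values further apart between the control choices. MiR-1a-3p, of muscle, was 2.74 ± 0.65 higher in CM than in CW (edgeR adjusted p = 0.0122) against a difference of 1.498 ± 0.81 from HW or WT (adjusted p = 0.226), with control means of 33.4 and 81.9 CPM. MiR-147-3p was at -1.73 ± 0.28 against CW (adjusted p = 0.00283) and -0.66 ± 0.22 against HW or WT (adjusted p = 0.0638), and miR-3473b, an inflammation-related miRNA, at -2.22 ± 0.31 and -1.31 ± 0.19 (adjusted p = 0.00175 and 0.00262). MiR-31-5p was higher in CM by 1.88 ± 0.44 and 2.31 ± 0.53, miR-215-5p by 1.42 ± 0.34 and 2.06 ± 0.34, and miR-486a-3p by 2.04 ± 0.44 and 1.99 ± 0.50, all called with both controls. MiR-500-3p was lower by -1.16 ± 0.24 and -1.29 ± 0.25, and miR-135a-5p by -2.46 ± 0.55 and -1.94 ± 0.52, also called with both. For miR-467a-5p the difference of CM was -0.47 ± 0.34 from CW and 0.90 ± 0.41 from HW or WT (edgeR adjusted p = 0.342 and 0.154), with means of 61.4 CPM in CM, 79.5 CPM in CW and 32.3 CPM in HW or WT mice. MiR-3068-3p was called against CW (0.49 ± 0.16, adjusted p = 0.0451) and not against HW or WT (0.39 ± 0.18, edgeR adjusted p = 0.154). All these values are from the counts. Within-mouse SDs in the counts and in the deposited CPM were 2.10 and 1.18 for miR-1a-3p and 2.03 and 0.89 for miR-135a-5p. They were 1.83 and 1.91 for miR-3473b and 1.25 and 1.05 for miR-486a-3p. On recovered reads the difference of miR-467a-5p between CW and HW or WT over months 1 to 10 was 0.03. Whether the changes against CW and against HW or WT differ, or depend on the counting, was not tested.

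Other mice came from the validation cohort, where sampling point 5 held 3 Ctrl CW mice, all female, and 3 Ctrl HW or WT mice, all male, so that genotype and sex cannot be told apart. Only the deposited scaled CPM was used there, and its columns sum to 9085940 to 13760600, so its values are not true CPM and were compared within this table alone. With limma on log2(CPM + 1), 0 of 976 miRNAs (0%) were called, with 65 at an unadjusted p under 0.05 and a median difference of -0.12. On recovered reads with edgeR's own scaling the median was -0.03 and 0 of 498 were called, with 46 at an unadjusted p under 0.05. Of the 10 miRNAs with the smallest p in the training mice, 8 had the same sign by limma. Some of these values were small beside the median of -0.12, such as 0.01 for miR-103-3p and -0.11 for miR-3068-3p.

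In these mice miR-126a-3p was at 936.3, 1025.7 and 1956.6 in CW (mice 2689, 2692 and 2702) and at 1239.2, 2581.3 and 1016.9 in HW or WT (mice 2683, 2705 and 2720), a difference of -0.26 ± 0.39 (limma adjusted p = 0.901). MiR-20b-5p was at 2908, 2278.3 and 3630.7 against 4198.2, 3816.2 and 3522, -0.41 ± 0.27 (limma adjusted p = 0.74), and miR-32-5p at -1.10 ± 0.43 (adjusted p = 0.653). MiR-135a-5p went the other way from the training mice, -0.95 ± 0.46 (limma adjusted p = 0.653). MiR-196a-5p did so too, with 32.3, 44.9 and 13.1 in CW against 2.57, 9.29 and 8.89 in HW or WT, where CW was now the higher in every mouse (1.96 ± 0.71, limma adjusted p = 0.653).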

How the data were processed

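Total RNA of PBMC was made into Illumina TruSeq small RNA libraries. The authors deposited whole-number counts per mature miRNA of the training libraries (1863 names) and, in separate tables, CPM scaled by TMM (1895 training and 1817 validation names). The columns of the latter do not share 1 sum, so the deposited CPM was handled as a signal. The submitters' processing notes name cutadapt, Bowtie, SAMtools, edgeR and GRCm38, with mirTOP in the label of the counts. How the counts divided reads with several matching names was not given in the sources used here. Deposited columns of Ctrl libraries came out as whole multiples of what 1 read is worth (100% of values above 0, within 0.1 of a whole number), which gave 1376082 to 6334036 reads per training and 3335687 to 4789925 per validation library.

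Counts were summed per mouse over months 1 to 10 and compared with edgeR 4.0.16 (filterByExpr, TMM, quasi-likelihood F test; R 4.3.3). An adjusted p under 0.05 counted as called. DESeq2 1.42.0 and limma 3.58.1 served as alternatives, and limma was the test of the validation CPM, with a pseudocount of 1 and at least 1 CPM in at least 3 libraries. Levels are TMM-scaled CPM of the sums, or of the library where months are given, and differences are fitted log2 values with their SE. MiR-126a was compared by an exact permutation test. The script was tested on simulated counts. Named miRNAs were both arms of miR-126a, called miRNAs, the 5 per direction with the smallest p at a mean of at least 10 CPM, the 6 most abundant, up to 4 per list by abundance, and in the CM comparisons the 3 called per direction with the largest change. The comparison, the lists and the rules were chosen with earlier results of these data known. Month 0 and validation point 5 were libraries outside the sums. Alternatives tried were other tests, scalings, filters, months, males only, sex as a covariate, fits of the 69 libraries with month and G number, and leaving out each mouse. Replicates are mice.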

Additional observations from a re-analysis of the deposited data

Results flagged for a closer look

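In 7 of the 72 groups examined, the highest or lowest mouse lay further from its nearest neighbor than Dixon's limit allows, which chance alone gives in about 1 in 20 groups. All 7 were groups of 4 CW mice. The groups examined were of CW mice, with both arms of miR-126a also in CM mice, and none was of HW or WT mice. The flags therefore do not compare the genotype groups. Over months 1 to 10 these were miR-103-3p, with 2700 CPM in mouse 3349 against 1860 to 1890 CPM in the others, miR-3068-5p, with 437 CPM in mouse 3342 against 477 to 478 CPM, and miR-155-5p, with 3370 CPM in mouse 3339 against 2940 to 2990 CPM. The muscle miRNA miR-133b-3p was at 7.82 CPM in mouse 3349, whose month 7 library also held the highest miR-133a-3p, and at 1.88 to 2.31 CPM in the other CW mice. MiR-221-3p was at 14100 CPM in mouse 3339 against 15200 to 15300 CPM, and miR-467e-5p at 373 CPM in mouse 3342 against 311 to 316 CPM. At month 0, miR-126a-3p was at 448 CPM in mouse 3342 and at 92.5 to 102.9 CPM in the other CW mice, while HW mouse 3340 was at 404.8 CPM.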

How the results depend on the processing

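Of the 22 alternatives to the comparison over months 1 to 10, 18 also called 0 miRNAs. DESeq2 called 4 and each of the fits of the 69 libraries 1 (miR-22-3p). Leaving out a mouse gave 0 to 1, the 1 being miR-196a-5p without mouse 3340 (log2 difference -3.11, edgeR adjusted p = 0.018). DESeq2 called 1 at months 1 to 5 (miR-149-3p). Leaving out a mouse gave 0 to 1 at months 6 to 10 (miR-1a-3p without mouse 3339) and 0 to 1 in the validation cohort (miR-31-5p without mouse 2705). With no filter the interaction with period gave 2 calls (miR-669a-3p and miR-124-3p). CM against CW gave 81 to 97 calls with a CW mouse left out, and CM against HW or WT 19 to 42 with a control mouse left out and 37 without mice 3334 and 3335. The difference of miR-126a-3p between the genotypes ranged from -0.18 to 0.023 with a mouse left out, reversing without mouse 3335, and was 0.029 without the month 6 library of that mouse.

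MiR-467a-5p, at 0.77 in the counts, was -0.063 by limma on the deposited CPM. The other reversals started from differences of at most 0.10. MiR-21a-5p was -0.0031 with sex as a covariate and -0.0082 on the deposited CPM, and ranged from -0.034 to 0.076 with a mouse left out, as let-7i-5p did from -0.013 to 0.086. MiR-451a was -0.0022 on the means over libraries, -0.056 and -0.022 in the fits of the 69 libraries with and without G number, and -0.082 to 0.19 with a mouse left out. Let-7g-5p was 0.014 with raw library sizes, 0.038 over months 1 to 9, 0.023 on the means over libraries, 0.022 in the 5 males, 0.023 on the deposited CPM, 0.031 and 0.037 in the fits of the 69 libraries, 0.015 on recovered reads and -0.038 to 0.043 with a mouse left out. The causes were not tested. Of the other values, 334 for single miRNAs kept their direction and their side of the threshold. A further 96 answered a comparison. These kept an equal or similar number of calls or, for miR-126a between the genotypes, the direction of the difference. The recovered reads, the summed names the fits without the month 6 library of mouse 3335 or the month 2 library of mouse 3349, and CM against HW or WT without CM mouse 3334 were chosen after seeing the data. CW mice could not be paired with HW or WT mice, because replicates are numbered by mouse and the genotype groups share no mouse. The change from month 0 was fitted with the mouse as a block. With 4 against 3 mice, differences of up to 1.01 on the log2 scale whose groups did not overlap went uncalled at 10 CPM or more.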
